A study of Mus musculus with 12 samples.

Results

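Aminoacyl-tRNA synthetases are the enzymes that attach each amino acid to its transfer RNA, the step that fixes the meaning of the genetic code before the ribosome reads a codon. The 36 genes described here were chosen by symbol from the names of the family, and all 36 were present among the 28997 genes of the deposited comparisons of mouse soleus muscle. Of these, 20 encode cytosolic enzymes and 16, whose symbols end in 2, encode mitochondrial ones. All 36 had a total above 1000 normalised reads over the 12 libraries, so none was lost to a filter on low values. Tarsl2, a second threonine enzyme of the cytosol, was measured but is not among the 36, and its values are given for comparison only.

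The soleus is a postural muscle of the lower leg with many slow, oxidative fibres, and its RNA was sequenced from 12 mice, 3 in each of 4 groups. The groups were Cdh5cre-WT on chow diet, Cdh5cre-WT on high fat diet, Cdh5Cre-NOX1CKO on chow diet and Cdh5Cre-NOX1CKO on high fat diet, for 8 weeks. All 4 groups carried a Cre driven by Cdh5, a gene of endothelial cells, so the controls had the Cre as well, and the conditional knockout of the NADPH oxidase gene Nox1 was aimed at endothelial cells and not at the muscle fibres. Strain, age and sex are not given in the labels. The deposited comparisons name the groups only as G1, G2, G3 and G4, and the labels do not say which code stands for which genotype and diet, so no difference below is attributed to either. The mice were separate animals, and the p-values measure the spread between them as the authors modelled it. The tables gave a total over all libraries and a fold change per comparison, with no value per mouse.

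A cell with mitochondria keeps a pair of synthetase sets, both encoded in the nucleus. The cytosolic set charges transfer RNAs for nearly all proteins, while the mitochondrial set serves the few respiratory chain subunits translated inside the organelle, which matter in an oxidative muscle. Several cytosolic synthetases are held together in a multisynthetase complex on the scaffold proteins Aimp1, Aimp2 and Eef1e1. Some genes serve both compartments, since Kars and Gars each encode the lysine and glycine enzymes of the cytosol and of mitochondria, and Eprs encodes a fused enzyme for glutamate and proline. Mitochondria have no glutamine enzyme of their own: Ears2 loads glutamate, and the amidotransferase made of Gatb, Gatc and Qrsl1 converts it. Many cytosolic synthetase genes are known targets of ATF4, the transcription factor of the amino acid stress response.

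Defining markers of soleus fibres were abundant, with Myh7, the slow myosin heavy chain, at a total of 3000445 normalised reads and Myh2, a fast oxidative one, at 4475802. Markers of other cells were also present, as whole muscle contains vessels, blood, fat and nerve. In G2 against G1, values were positive in 0 of 9 endothelial, 0 of 9 macrophage, 0 of 8 adipocyte, 0 of 6 Schwann cell, 0 of 5 erythroid, 2 of 6 fibroblast and 0 of 8 fast fibre markers, against 7 of 9 soleus fibre markers. None of these markers passed the adjusted test in that comparison. In G4 against G3 they were positive in 8 of 9 endothelial, 1 of 9 macrophage, 5 of 8 adipocyte, 1 of 6 Schwann cell, 0 of 5 erythroid, 0 of 6 fibroblast and 8 of 8 fast fibre markers, and of 8 of 9 soleus fibre markers, and again none was called. In G3 against G1 and G4 against G2 in turn, positive values were found in 5 and 9 of 9 endothelial, 2 and 4 of 9 macrophage, 1 and 6 of 8 adipocyte, 2 and 4 of 6 Schwann cell, 3 and 5 of 5 erythroid, 5 and 3 of 6 fibroblast, 0 and 0 of 8 fast fibre and 4 and 1 of 9 soleus fibre markers. In the authors' deposited tables the fibroblast marker Lum rose by 0.58 in G3 against G1 (step-up adjusted p = 0.0128), Cidea of the adipocyte list by 0.83 in G3 against G1 (0.0281) and 0.82 in G4 against G2 (0.0138), and Fabp4 of that list by 0.37 in G4 against G2 (0.0254). In bulk tissue, fewer cells of a type and less RNA per cell cannot be told apart. The part of such shifts in the synthetase values was not tested.

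Summed over all 12 libraries, the cytosolic genes had the higher median level and Lars2, a mitochondrial gene, the highest level of all. Levels are compared per length, as CPM (reads scaled to a common library size) per kb of the longest coding transcript. The median level was 15.8 for the 20 cytosolic genes and 4.18 for the 16 mitochondrial genes. Eprs was the highest cytosolic gene at a level of 56.3, followed by Kars at 40.0, and both make enzymes that serve more than 1 amino acid or compartment. Gars, which also serves both compartments, was at 23.1, below Nars at 36.5. Farsa, the catalytic subunit of the cytosolic phenylalanine enzyme, was the lowest at 6.05, while its partner subunit Farsb stood at 17.3. Among mitochondrial genes the level ran from 1.03 for Mars2, the methionine enzyme, through 13.5 for Iars2, the isoleucine enzyme, to 131 for Lars2, the leucine enzyme. Reads of ribosomal origin may be counted in Lars2, as described below. Their part in its level, its pair ratio and its share of reads was not tested. The ranges overlapped beyond Lars2, since Iars2 and Fars2, the phenylalanine enzyme at 11.3, both lay above several cytosolic genes, among them Farsa, Tars, Vars and Cars. The annotated Mars2 transcript is 11294 bases long, and a level per length falls where only part of that length is transcribed, so its rank depends on the annotation.

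**Figure D1:**
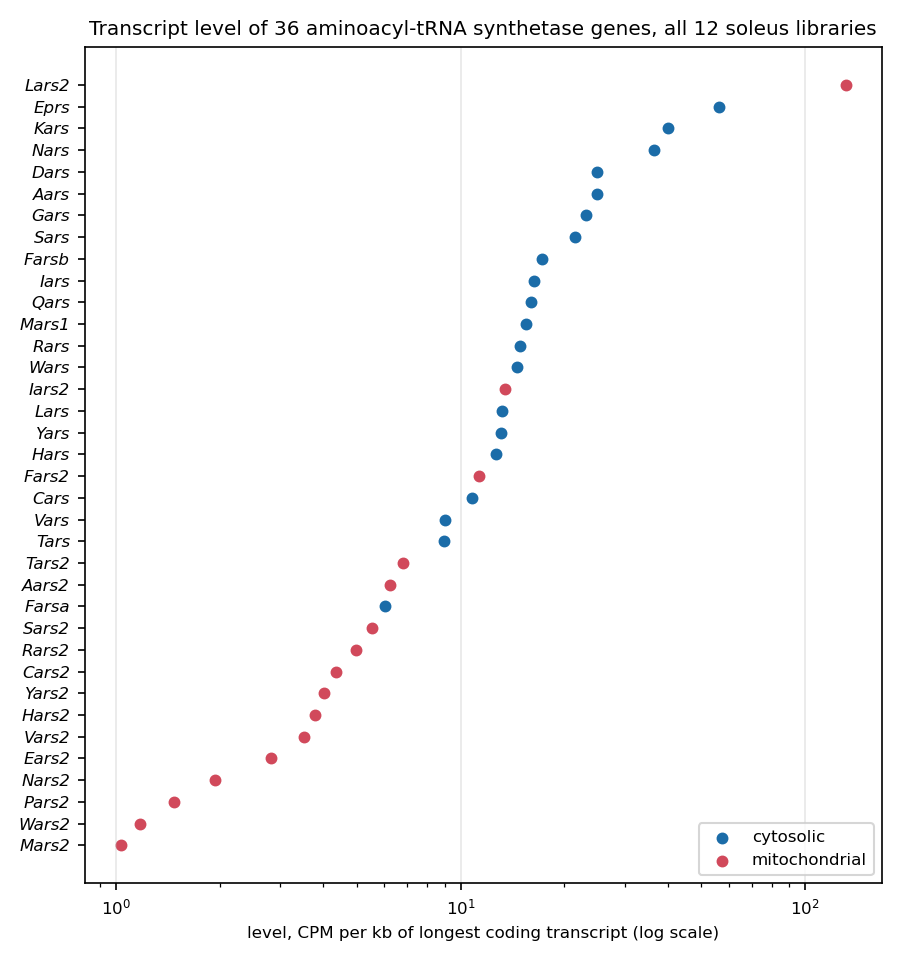
Each point is 1 of the 36 synthetase genes, placed on a log axis by its level in CPM per kb of transcript over all 12 libraries, with cytosolic genes in blue and mitochondrial genes in red. Lars2 stands at 131, above Eprs at 56.3, and the other 15 mitochondrial genes lie at 13.5 or below. The part of reads of ribosomal origin in the Lars2 level was not tested.

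Set against the enzyme for the same amino acid, the cytosolic gene had the higher level in 15 of 17 pairs. The ratio was highest for Eprs over Pars2, the mitochondrial proline enzyme, at 38.2, and it was 19.9 for Eprs over Ears2. Nars over Nars2, the asparagine pair, had a ratio of 18.8. The isoleucine and threonine pairs were the closest to equal among the 15, with ratios of 1.21 for Iars over Iars2 and 1.32 for Tars over Tars2. The cytosolic gene was the lower of the pair in Farsa over Fars2, with a ratio of 0.533, and in Lars over Lars2, with a ratio of 0.101. Tarsl2, outside the 36, had a level of 24.0, which was 2.68 times that of Tars. These levels are sums over all groups, with no replicate error of their own.

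The 20 cytosolic genes together took 0.130% of all normalised reads and the 16 mitochondrial genes 0.0753%. Lars2 alone, with a total of 152672, accounted for 67.8% of the mitochondrial share. Its total was 6.92 times that of the next mitochondrial gene, Iars2, and 2.11 times the sum of the other 15.

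Summed by group, the synthetase reads were nearly level once Lars2 was set aside. The group levels used here were rebuilt from each total and its fold changes, as mean normalised reads per library, and carry no SD. The cytosolic sum was 32266, 32932, 31836 and 32333 from G1 to G4, so the highest group exceeded the lowest by 3.44%. The mitochondrial sum without Lars2 was 6160, 6048, 5906 and 6030 in the same order, a range of 4.30%. With Lars2 it was 21407, 17018, 21623 and 14987, and the highest exceeded the lowest by 44.3%. The share of Lars2 in the mitochondrial sum was 71.2%, 64.5%, 72.7% and 59.8% from G1 to G4.

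Of the 36 genes, Lars2 was the only 1 that passed an adjusted p of 0.05 in any of the 4 comparisons, and it did so in G4 against G3. The rebuilt group levels of Lars2 were 15247, 10970, 15717 and 8957 from G1 to G4, so that G2 and G4 were the low groups and G1 and G3 the high ones. In the authors' deposited table for G4 against G3 its log2 fold change was -0.81 (implied SE 0.17, adjusted p = 0.00834 by the step-up method), with a 95% interval from -1.14 to -0.48. That made 1 of 36 genes called, where 0.0394% of the 17752 genes with an adjusted p were called in that comparison. The log2 of Lars2 in G2 against G1 was -0.47 in the authors' deposited table, with an unadjusted p of 0.00471 and an adjusted p of 1, so that difference was not called. For G3 against G1 and G4 against G2 the authors' deposited tables gave 0.04 and -0.29, the latter with a step-up adjusted p of 0.637.

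The 4 comparisons share groups, so their values are not independent of each other. Averaged over both steps, the G2 and G4 groups against G1 and G3, Lars2 fell by 0.64 (SE 0.12, adjusted p = 0.00049, from a z test on the rebuilt contrast with Benjamini-Hochberg adjustment). It was 1 of 36 genes called there, against 0.0452% of 15494 genes, and the only 1 at an unadjusted p under 0.05, against 3.12%. With a t distribution of 8 degrees of freedom in place of the normal, the rebuilt call was lost (adjusted p = 0.9996), while the call in the authors' deposited table for G4 against G3 is theirs and does not depend on that choice. The difference between its fall in G4 against G3 and in G2 against G1, the interaction, was -0.34 (SE 0.24, adjusted p = 0.9997 by the same z test), so the falls were not shown to differ.

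Lars2 lies on chromosome 9, 123366927 to 123462666 in GRCm38. Reads of ribosomal origin are known to be counted in some annotated genes, and genes of that kind are given beside it. CT010467.1, annotated as an rRNA gene on chromosome 17 (39846353 to 39848827), had a total of 8651130 normalised reads. Mir6236 is annotated as a miRNA gene on chromosome 9 (110281287 to 110281409), and Gm15564 as an antisense gene on chromosome 16 (35966752 to 35983230). The mature miRNA of Mir6236, given by RefSeq on GRCm38.p6 at chr9:110281353-110281371 on the plus strand, is shown because a gene this short had a total of 33729 reads in libraries of messenger RNA; capitals mark the seed, bases 2 to 8.
mmu-miR-6236: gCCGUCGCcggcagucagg

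CT010467.1, Mir6236 and Gm15564 had lower levels in G2 and G4 than in G1 and G3, as Lars2 had. CT010467.1 had rebuilt levels of 884423, 676160, 874079 and 449048 from G1 to G4. Mir6236 had 3302, 2521, 3508 and 1912 in that order, and Gm15564, with a total of 649, had 68.9 in G1 and 32.1 in G4. In the authors' deposited table for G4 against G3 the log2 was -0.96 for CT010467.1 (adjusted p = 2.48e-05), -0.88 for Mir6236 (adjusted p = 0.0017) and -1.02 for Gm15564 (adjusted p = 0.076), beside the -0.81 of Lars2. For G2 against G1 the authors' deposited table gave -0.39, -0.39 and -0.46, and none was called. CT010467.1 was also called in G4 against G2, with -0.59 (step-up adjusted p = 0.0203) in the authors' deposited table beside the -0.29 of Lars2, and that difference between the genes was not tested. The mitochondrial rRNA genes, whose products are the RNA of the ribosome that the mitochondrial synthetases serve, had values near 0 in G4 against G3. There mt-Rnr1 had a log2 of 0.01 and mt-Rnr2 of -0.01 in the authors' deposited table, with an implied SE of 0.12 and 0.13. For G3 against G1 the authors' deposited table gave mt-Rnr1 -0.15 (implied SE 0.12), which was not called. Gm10925, an abundant pseudogene kept in the same list, had another order, with rebuilt levels of 278586, 250074, 316393 and 300830 from G1 to G4.

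**Figure D2:**
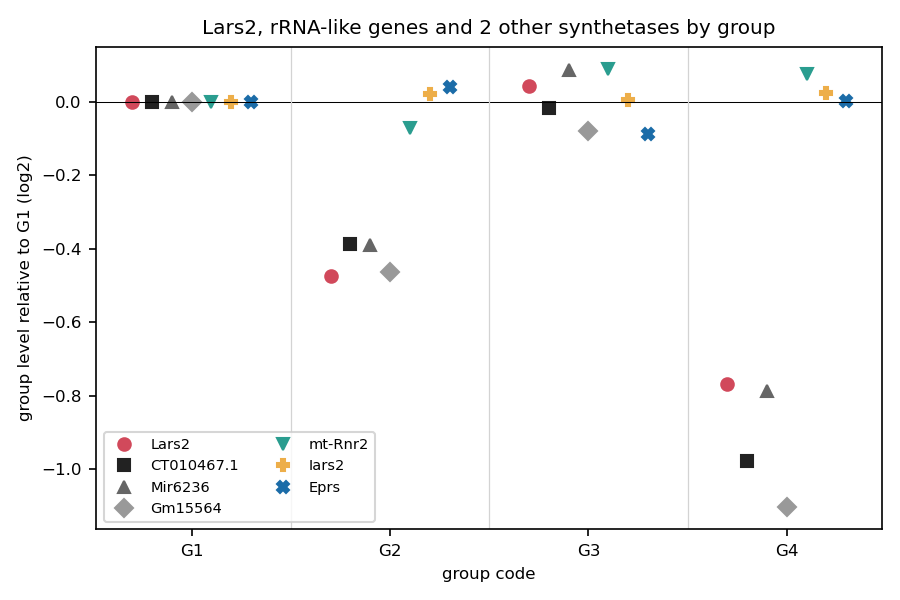
Points give the rebuilt level of each gene in groups G1 to G4 relative to its own G1 level, on a log2 scale, with no error shown because no value per mouse was given. Lars2, CT010467.1, Mir6236 and Gm15564 all lie below -0.3 in G2 and below -0.7 in G4, while the mitochondrial isoleucine gene Iars2, the cytosolic gene Eprs and the mitochondrial rRNA gene mt-Rnr2 lie within 0.1 of their G1 level throughout.

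A search of 292 annotated transcripts of the 36 genes against the transcripts of 6 such genes, the mitochondrial rRNA genes among them, found a shared stretch in 1 of the 36, Lars2. The stretch was 72 bases long with 98.6% identity to Gm15564, and it lay at bases 3278 to 3349 of the 3894-base coding transcript. The last coding base is 2905, so the stretch falls in the 3′ UTR, within exon 21 of 21, at 123462048 to 123462119 of chromosome 9. The search reported no match to CT010467.1 or Mir6236. It grew matches from 16 exact bases and kept only those with a strong enough score, so short shared stretches could be missed. The tables do not show where in Lars2 the reads lie, and the part of that stretch in the Lars2 values was not tested.

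None of the other 35 genes was called in any of the 4 comparisons. By the adjusted p of the authors' deposited tables, 0 of the 36 genes were called in G3 against G1, where 0.21% of 28997 genes were, and 0 of 36 in G4 against G2, where 1.38% of the 14539 genes with an adjusted p were. In G2 against G1, deposited and rebuilt values together, 0 of 36 were called against 0.00645% of 15494 genes. At an unadjusted p under 0.05 there was 1 gene in each of these 3 comparisons, Mars2 in G3 against G1 and in G4 against G2 and Lars2 in G2 against G1, where the shares of all genes were 5.63%, 9.06% and 2.35%. In G4 against G3 it was again only Lars2, against 4.83%.

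The precision of these values was high for the family as a whole. Among the 36, the median absolute log2 was 0.056 in G2 against G1, 0.055 in G3 against G1, 0.073 in G4 against G2 and 0.074 in G4 against G3. Over all 15494 genes whose total reached 100 it was 0.093, 0.112, 0.131 and 0.117. The median implied SE of the 36 was 0.097 in G4 against G3, compared with 0.178 over all genes. The set of all genes includes totals down to 100, while the lowest total of the 36 was 1342. Among the 36 a higher total went with a lower implied SE (Spearman -0.68 in G4 against G2). The part of read depth in the contrast with all genes was not tested. The 95% interval stayed within a 1.5-fold change in either direction for 35, 36, 35 and 34 of the 36 in the 4 comparisons, and for 61.8%, 60.1%, 57.2% and 59.6% of all genes. For the cytosolic genes it did so in 20 of 20 in each comparison, so a change of 1.5-fold lay outside the 95% interval of each of these genes.

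**Figure D3:**
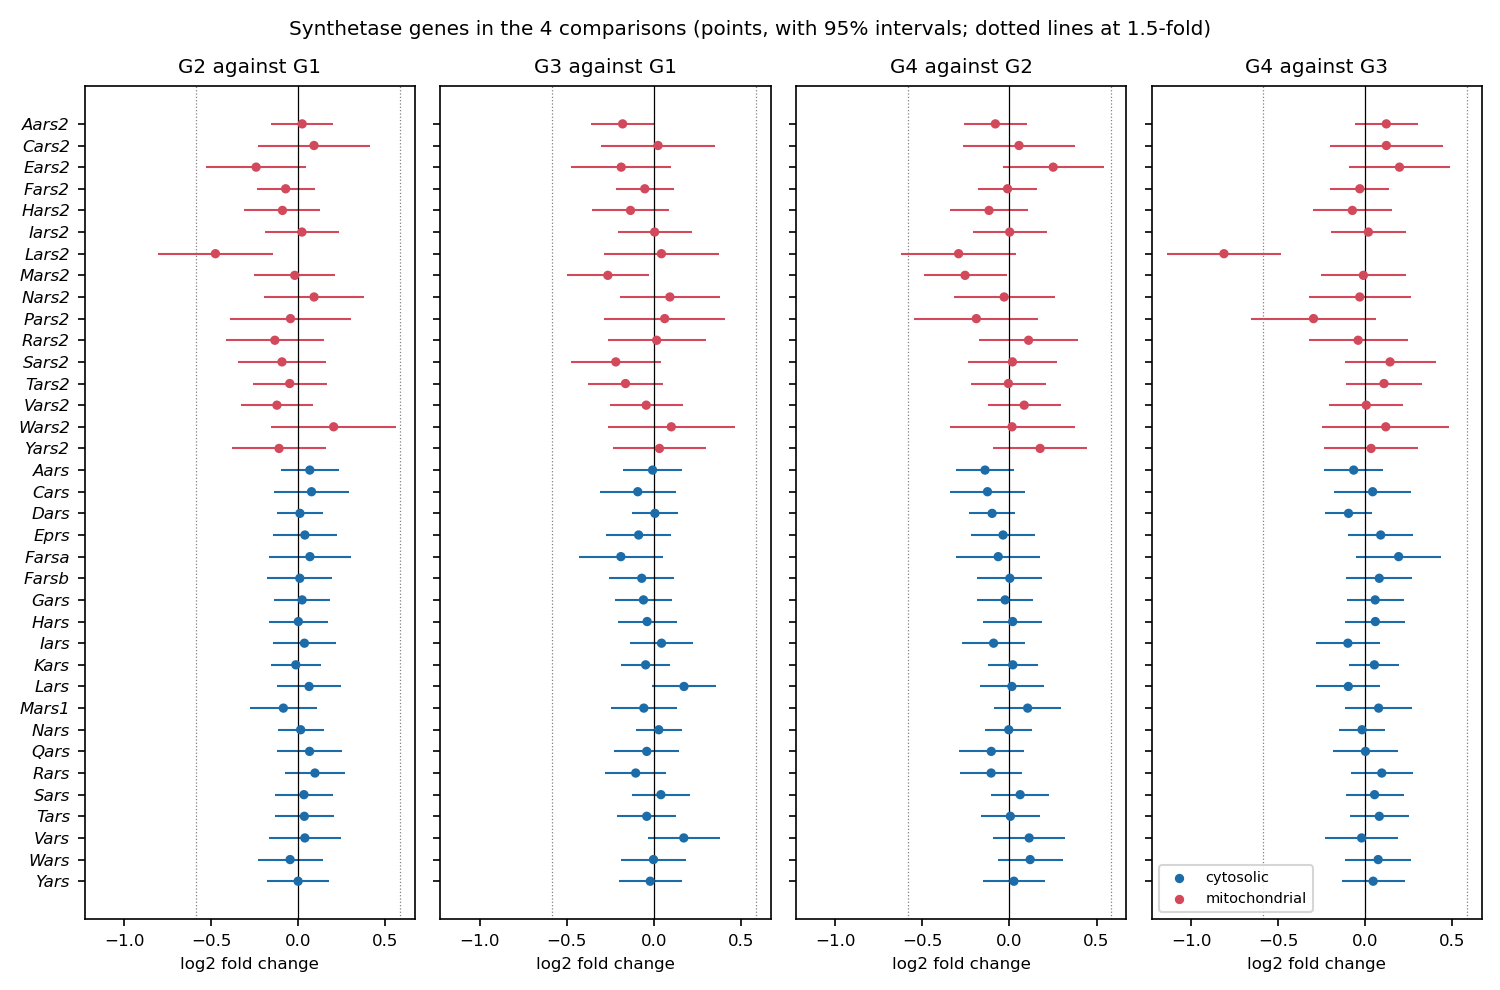
Each row is 1 synthetase gene and each panel 1 comparison, with the log2 fold change as a point and its 95% interval as a line, mitochondrial genes in red and cytosolic genes in blue, and dotted lines at a change of 1.5-fold. Lars2 in G4 against G3 lies at -0.81, away from the other 35 genes, none of which was called.

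The cytosolic genes showed small shifts that differed between comparisons. In G2 against G1, 17 of 20 had a positive log2 with a median of 0.035, beside 49.7% positive and a median of -0.001 over all genes. In G4 against G3, 14 of 20 were positive with a median of 0.053, beside 50.9% and 0.004. In G3 against G1, 6 of 20 were positive with a median of -0.039, and in G4 against G2, 10 of 20 with a median of -0.001. With trends of fold change on GC content, transcript length and total removed, the cytosolic median was 0.032 in G2 against G1, 0.014 in G4 against G3, -0.016 in G3 against G1 and -0.037 in G4 against G2. The comparisons share groups, and none of the 20 genes was called. The shifts of the medians were not tested.

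Among the cytosolic genes, Farsa, the catalytic subunit of the phenylalanine enzyme, had the largest values in a pair of comparisons. Its rebuilt group levels were 280, 294, 246 and 281 from G1 to G4, with G3 the lowest. Its log2 was -0.19 (implied SE 0.12) in G3 against G1 and 0.19 (implied SE 0.13) in G4 against G3 in the authors' deposited tables. The partner subunit Farsb had levels of 882, 888, 841 and 889, also lowest in G3, with -0.07 and 0.08 in the same tables. Neither gene was called.

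Lars, which encodes the cytosolic leucine enzyme and senses leucine for the growth kinase mTORC1, had its lowest level in another group than Lars2. Its group levels were 1237, 1292, 1395 and 1305 from G1 to G4, lowest in G1. Its log2 was 0.17 (implied SE 0.09) in G3 against G1 and -0.10 (implied SE 0.09) in G4 against G3 in the authors' deposited tables, and neither was called. Vars, the valine enzyme, had a log2 of 0.17 in G3 against G1 in the authors' deposited table, and averaged over G3 and G4 against G1 and G2 it was 0.14 (SE 0.08, adjusted p = 0.538 by the z test with Benjamini-Hochberg adjustment).

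The alanine enzyme Aars had its largest value, -0.14 (implied SE 0.09, step-up adjusted p = 0.67), in the authors' deposited table for G4 against G2. In that table Cars, the cysteine enzyme, had -0.13 and Wars, the tryptophan enzyme, had 0.12. In G2 against G1 the largest cytosolic values were 0.10 for Rars, the arginine enzyme, and 0.08 for Cars, both rebuilt, and -0.08 for Mars1, the methionine enzyme, in the authors' deposited table. In G4 against G3 Iars, the isoleucine enzyme, had -0.10 in the authors' deposited table. Eprs, the most abundant of the cytosolic genes per length, had group levels of 6929, 7119, 6523 and 6939 and no log2 beyond 0.09 in size in the 4 comparisons.

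The 8 genes whose enzymes belong to the multisynthetase complex, Dars, Eprs, Iars, Kars, Lars, Mars1, Qars and Rars, held no called gene. Positive values were found in 6 of 8 in G2 against G1, 3 of 8 in G3 against G1, 3 of 8 in G4 against G2 and 5 of 8 in G4 against G3, with medians of 0.038, -0.044, -0.064 and 0.027. Among the 12 cytosolic genes outside the complex the counts were 11, 3, 7 and 9, with medians of 0.028, -0.029, 0.004 and 0.056, and the difference between these groups was not tested. Among 12 genes that hold the complex together, edit or recycle charged transfer RNA or are related to the synthetases, 0 were called in the 4 comparisons. The scaffold gene Aimp2 had an unadjusted p under 0.05 in a pair of them, with a log2 of -0.24 in G3 against G1 and 0.28 in G4 against G3 in the authors' deposited tables. Tarsl2 had values between -0.09 and 0.07.

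Synthetases fall into class I and class II by the fold of the catalytic domain. Averaged over G3 and G4 against G1 and G2, 12 of the 18 class I genes were positive, with a median of 0.022, and 3 of the 17 class II genes, with a median of -0.042. Eprs holds a domain of each class and was left out of both. Over all genes 49.2% were positive with a median of -0.003. The classes lay closer together in their share of positive genes in G3 against G1 and in G4 against G2, the comparisons averaged there. Averaged over G2 and G4 against G1 and G3, 9 of 18 class I and 12 of 17 class II genes were positive, with medians of 0.003 and 0.030. The difference between the classes was not tested. In the average of G3 and G4 against G1 and G2, 0 of the 36 genes were called, against 1.65% of 15494 genes. These calls used the z test with Benjamini-Hochberg adjustment. At an unadjusted p under 0.05 there were 2 of 36 in that average, Mars2 and Aars2, against 9.74%.

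Among the mitochondrial genes other than Lars2, Mars2 had the lowest unadjusted p. Its rebuilt group levels were 318, 314, 265 and 263 from G1 to G4, so that G3 and G4 were both below G1 and G2. In G3 against G1 its log2 was -0.26 (unadjusted p = 0.0287, step-up adjusted p = 1) in the authors' deposited table. In G4 against G2 it was also -0.26 (unadjusted p = 0.0362, step-up adjusted p = 0.474) in the authors' deposited table. Averaged over both, it was -0.26 (SE 0.09, adjusted p = 0.102 by the z test with Benjamini-Hochberg adjustment), short of the threshold. With a t distribution of 8 degrees of freedom in place of the normal, the adjusted p for Mars2 was 0.678. With the z test over genes with a total of at least 1000 it was 0.0811. With the trends removed, its log2 was -0.36 in G3 against G1 and -0.13 in G4 against G2, and -0.25 in the averaged contrast (adjusted p = 0.128 by the z test with Benjamini-Hochberg adjustment).

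Aars2, the mitochondrial alanine enzyme, had group levels of 538, 547, 475 and 517 and a log2 of -0.13 (SE 0.06, adjusted p = 0.494 by the same test) in that averaged contrast. Hars2, the histidine enzyme, had 337, 317, 307 and 292 and a log2 of -0.13 (SE 0.08). For Sars2, the serine enzyme, the authors' deposited table of G3 against G1 gave a log2 of -0.22 (implied SE 0.13).

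Ears2, whose product loads glutamate for the amidotransferase, was the gene with the largest interaction. Its group levels were 154, 130, 135 and 155 from G1 to G4, so that G1 and G4 were high and G2 and G3 low. Its log2 was -0.24 in G2 against G1, -0.19 in G3 against G1, 0.25 in G4 against G2 and 0.20 in G4 against G3 in the authors' deposited tables. The interaction was 0.44 (SE 0.21, unadjusted p = 0.0358, adjusted p = 0.9997 by the z test with Benjamini-Hochberg adjustment), and it was the only 1 of the 36 with an unadjusted p under 0.05, against 4.12% of all genes. No gene of the 36 was called there, where 0.00645% of 15494 genes were. The amidotransferase genes Gatb, Gatc and Qrsl1 that act after Ears2 had values between -0.21 and 0.08 in the 4 comparisons, and none was called.

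Pars2 and Wars2 had the lowest totals and the largest implied errors of the 36. Pars2, the proline enzyme, had a total of 1342 normalised reads, with group levels of 116, 112, 121 and 98, and a log2 of -0.30 (implied SE 0.18) in the authors' deposited table for G4 against G3. Wars2, the tryptophan enzyme, had levels of 118, 136, 126 and 137 and a rebuilt log2 of 0.20 (SE 0.18) in G2 against G1. Neither was called, and a change of 1.5-fold was within the 95% interval of Pars2 in G4 against G3.

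As a set, the mitochondrial genes had 5 of 16 positive values in G2 against G1 and a median of -0.060, beside 17 of 20 for the cytosolic genes in the same comparison. Without Lars2 the median was -0.048 with 5 of 15 positive. In G3 against G1 the median was -0.019 with 8 of 16 positive, in G4 against G2 -0.002 with 8 of 16, and in G4 against G3 0.012 with 9 of 16. With the trends removed these 4 medians were -0.063, -0.027, -0.019 and 0.042. The difference between the 2 compartments, and its change from 1 comparison to another, was not tested.

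**Figure D4:**
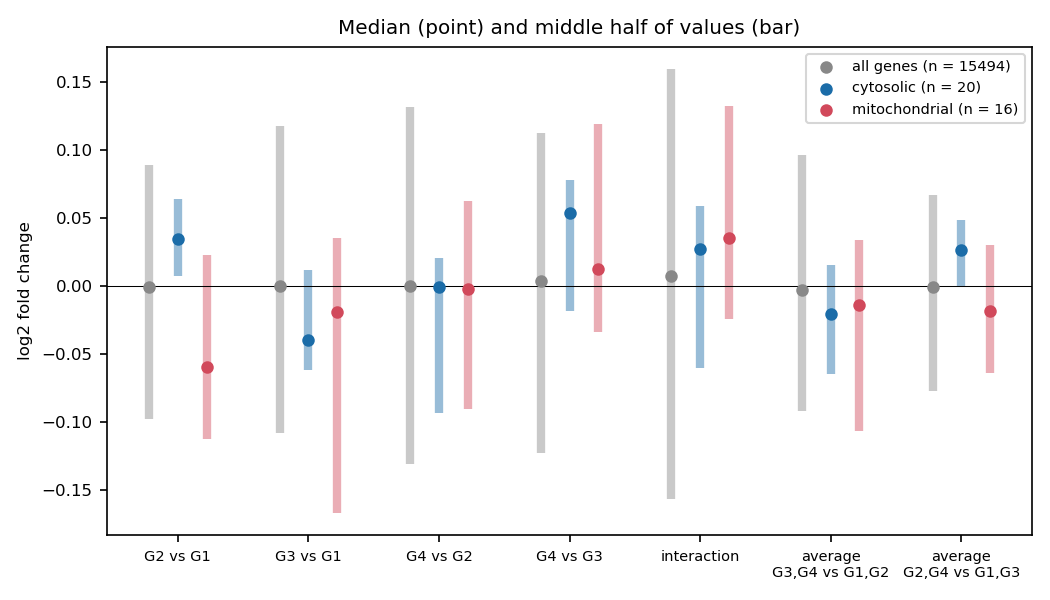
Points are the median log2 fold change and bars the middle 50% of values for all 15494 genes with a total of at least 100 (grey), the 20 cytosolic genes (blue) and the 16 mitochondrial genes (red), in the 4 comparisons and the 3 contrasts rebuilt from them. In G2 against G1 the cytosolic median is 0.035 and the mitochondrial median -0.060, beside -0.001 for all genes.

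Other genes of translation are given beside these for G2 against G1. Of 10 mitochondrial translation factors 0 were positive in G2 against G1, with a median of -0.065, and the lowest was Tufm, the mitochondrial elongation factor Tu, at -0.16 in the authors' deposited table. Of 9 cytosolic elongation and termination factors 7 were positive, with a median of 0.029. No gene of either list was called in any of the 4 comparisons. In G4 against G3 the translation factors of mitochondria were positive in 5 of 10 and the cytosolic factors in 5 of 9. In G3 against G1 and G4 against G2 the mitochondrial factors had values of both signs. In the authors' deposited tables Tufm had 0.02 and 0.21 there, and Gfm1 had -0.06 and -0.03.

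The ATF4 motif was found in promoters of cytosolic synthetases and in none of the mitochondrial ones examined. RefSeq promoters on GRCm38.p6, from 250 bases before to 50 after the start, were found for 27 of the 36 genes, 13 cytosolic and 14 mitochondrial. The core TGATGNAA, searched on both strands, was present in 5 of 13 cytosolic promoters (Aars, Gars, Iars, Tars and Yars) and in 0 of 14 mitochondrial ones, and in 4.51% of 27025 gene symbols with a promoter. The motif CACGTG, an E-box, was in 4 of 13 and 1 of 14, against 8.09%. The ETS motif CCGGAAG was in 5 of 13 and 4 of 14, against 9.93%, and the NRF1 motif in 3 of 13 and 2 of 14, against 5.19%. Motif matches are descriptions of these letters and not of bound factors, and no motif searched contains another. A stretch of 60 bases is shown for Gars and Tars, where the match lies before the start and outside the annotated gene. The letters can thus be set beside the values of these genes. The Aars match also lies before the start, at -112, but inside the annotated gene, and is not shown. In the stretches shown, capitals mark the match, which is the core on the reverse strand.
Gars, chr6:55037934-55037993, plus strand: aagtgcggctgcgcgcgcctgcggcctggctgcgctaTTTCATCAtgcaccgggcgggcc
Tars, chr15:11399666-11399725, minus strand: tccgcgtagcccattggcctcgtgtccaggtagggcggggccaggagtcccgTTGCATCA

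None of the 5 synthetases with the motif was called in any of the 4 comparisons. Of 25 measured genes of the list of ATF4 and its targets, 1 was called in G3 against G1, where 0.21% of all genes were, and 2 in G4 against G2, where 1.38% of genes with an adjusted p were. None was called in the other 2 comparisons, where at an unadjusted p under 0.05 there were 0 in G2 against G1 and 1 in G4 against G3. Psat1, a serine synthesis enzyme, rose by 0.86 in G3 against G1 (step-up adjusted p = 0.0165) and by 0.78 in G4 against G2 (step-up adjusted p = 0.0161) in the authors' deposited tables. Cebpb, a transcription factor that pairs with ATF4, rose by 1.33 in the authors' deposited table for G4 against G2 (step-up adjusted p = 0.000338). Asns, the asparagine synthetase of the same stress response, had 1.07 there and was not called (step-up adjusted p = 0.145), and Atf4 itself had -0.08. In those tables Gars had -0.06 and -0.02, Tars -0.04 and 0.00, and Yars -0.02 and 0.03, for G3 against G1 and G4 against G2. Aars had -0.01 and -0.14, and Iars 0.04 and -0.09. The same promoter search gave a match for Asns and none for the called genes Psat1 and Cebpb. Whether Psat1 and Cebpb had a promoter in the set searched was not recorded.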

How the data were processed

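RNA of 12 soleus muscles, 3 mice in each of 4 groups, was made into stranded mRNA libraries with a KAPA kit, per the labels' protocols. Bowtie2 2.1.0, RSEM 1.2.15 and edgeR were used on mm10 (GRCm38), per the submitters' processing notes, which give no role or order. RSEM shares out reads that match several transcripts, so genes with near-identical copies are uncertain; the copy Kars-ps1 had a total of 1.09.

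The 4 tables the authors deposited give for each gene, per the file headers, the total over all libraries (a signal of normalised reads, 298863066 in all, or a mean of 24905255 per library), the log2 and signed fold change (a score) and the p-value with its step-up adjustment. The adjusted p-value is blank for 14458 genes of G4 against G2 and 11245 of G4 against G3, per the file headers and values. The table of G2 against G1 lists 15652 genes, none with a log2 above 0.

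With no values per library, the edgeR test planned for counts was not run, and the authors' p-values were used. Implied standard errors are the log2 divided by the normal quantile of its p-value. Missing values of G2 against G1, 22 of the 36 synthetases among them, were rebuilt by adding G4 against G3 to G3 against G1 and subtracting G4 against G2. On 7792 listed genes the rebuilt log2 differed by at most 1.02e-14. Adjusted values for G2 against G1, the interaction and the averaged contrasts come from Benjamini-Hochberg adjustment over 15494 genes with a total of at least 100. The arithmetic of these steps was checked on data simulated from the normal distribution that the z test assumes. That check cannot show whether the normal suits 3 mice per group. Genes with an adjusted p under 0.05 are called. Group levels assume that the fitted group means add up to the total. All 36 genes matched GENCODE M21, and shared sequence was searched with BLAST 2.17.0 in place of the planned exact matches. Python 3.11.15 and scipy 1.17.1 were used.

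The members, gene lists, marker lists and tests were chosen with earlier results of these data known. Named are each gene called, Lars2, the 3 cytosolic and 3 mitochondrial genes with the largest absolute log2 in each comparison or contrast, those with the highest or lowest level per length, and of other lists the called genes and the 2 with the largest absolute log2 where they bear on a result; other genes were named after their values were seen. Alternatives were other sets of genes for the adjustment, a threshold of 0.1, centring, removal of trends on GC content, length and total, totals of 0 or 1000 as the minimum, leaving out Lars2, and a t distribution for rebuilt values.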

Additional observations from a re-analysis of the deposited data

How the results depend on the processing

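The count of synthetases called was the same in every comparison in each of the alternatives but 1: other sets of genes for the adjustment, the threshold of 0.1, centring and trend removal left it as it was, and Lars2 was the gene called in G4 against G3 throughout. The exception was a rebuilt contrast: with a t distribution of 8 degrees of freedom, 0 genes in place of 1 were called in the average of G2 and G4 against G1 and G3, and Lars2, at -0.64 there, had an adjusted p of 0.9996, because the t distribution gives the same ratio of value to error a larger p. The medians depended on the processing more than the calls did: of 98 alternatives for the counts and medians, 84 kept the direction and stayed within 1.5-fold of the value and 14 did not. Of the 14, 1 was the count lost with the t distribution and the rest were medians. The 84 include the other counts of called genes, most of them 0 in every setting, which have no direction. They also include minimum totals of 0 and 1000 for the medians. Those settings could not move a median, because all 36 genes had totals above 1000. Removal of trends on GC content, length and total gave cytosolic medians of -0.016 in G3 against G1, -0.037 in G4 against G2, 0.014 in G4 against G3, -0.0075 in the interaction, where the main value was 0.027, -0.032 in the average of G3 and G4 against G1 and G2, and 0.0088 in that of G2 and G4 against G1 and G3. It gave mitochondrial medians of -0.019 in G4 against G2, 0.042 in G4 against G3, and -0.036 and -0.012 in the averages. Without Lars2 the mitochondrial median was -0.043 in G3 against G1, 0.0013 in G4 against G2 and 0.0030 in the average of G3 and G4 against G1 and G2, the last 2 with the sign turned from -0.0025 and -0.014. Trend removal took Mars2 to -0.36 in G3 against G1, -0.13 in G4 against G2, 0.16 in G4 against G3 and 0.23 in the interaction; the cause was not tested.

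No paired analysis was possible because values per library are not in the tables used here and the labels give no shared replicate numbers. For the same reason leaving out each mouse, and the DESeq2 and edgeR alternatives, were not run, and whether 1 mouse decides the Lars2 value is unknown. Group codes could not be tied to genotype or diet. The lowest total among the 36 was 1342, or 112 reads per library. Implied errors did not follow the total alone, since Lars2, with the highest total, had an implied SE of 0.17.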
